A study of Sus scrofa with 20 samples.

Results

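Haemopexin (HPX), lipopolysaccharide-binding protein (LBP), the bikunin precursor (AMBP) and the inter-alpha-trypsin inhibitor heavy chains (ITIH1 to ITIH5) are plasma proteins, most of them made by hepatocytes, and several belong to the acute-phase response. They were chosen by gene name from a list of 10 genes. Of these, 8 had a row among the 25764 genes of the table, and HP (haptoglobin) and ORM1 (orosomucoid) were skipped because no row carried their names. The 20 libraries were made from poly(A) RNA of pig cells with a stranded kit. The 5 libraries of biliary tree stem cells (pBTSCs) came from neonatal piglets and are labelled as gallbladder, and the 15 liver libraries are labelled CD45+ (5 libraries), CD45-/EpCAM+ (4), CD45-/EpCAM- (2), CD31+ (2) and CD146+ (2). CD45 marks leukocytes, EpCAM epithelial cells, and CD31 and CD146 vascular cells. No treatment, strain or age of the liver donors is given in the labels. The study's supplement lists the pBTSC libraries S2, S7 and S11 as piglets of a line carrying a fluorescent H2B-GFP histone and S15 and S20 as wild-type piglets. It also gives a lower RNA integrity number for each of S2, S7 and S11 than for S20, and none for S15. Line and RNA integrity therefore cannot be told apart among these libraries. The labels do not give the line, so no test was made between these libraries and each is given by its own value.

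The acute-phase response is the change in the liver's output of plasma proteins that follows infection or injury, driven mainly by IL-6 acting through STAT3. Haemopexin binds free haem, and LBP carries bacterial endotoxin to CD14 and TLR4. AMBP encodes a precursor that is cut into alpha-1-microglobulin and bikunin, a protease inhibitor. Bikunin is joined through a chondroitin sulphate chain to the heavy chains of ITIH1, ITIH2 and ITIH3, which the enzyme TNFAIP6 can transfer to hyaluronan in the matrix. ITIH4 is not joined to bikunin and is known in pigs as a major acute-phase protein, and ITIH5 is expressed in many tissues outside the liver. In the RefSeq gene table, ITIH1, ITIH3 and ITIH4 are neighbours, as are ITIH2 and ITIH5.

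Values are normalized counts as deposited. The estimated depth was 21200000 to 77600000 reads in 17 libraries and 457000 to 1570000 in the other 3, S13 (CD45-/EpCAM+), S15 (pBTSCs) and S22 (CD146+). All 160 values of the 8 genes lay above the worth of 3 reads, the lowest resting on about 3.22 reads (LBP in S11). The genes of the sorting antigens separated some sorts and not others. PTPRC, which encodes CD45, ranged from 424 to 2687 in CD45+ libraries and from 450.1 to 3027 in CD45-/EpCAM+ libraries. EPCAM ranged from 1205 to 1779 in CD45-/EpCAM+ libraries, above the 491 and 1089.6 of CD45-/EpCAM- libraries, and from 1175 to 2232 in CD45+ libraries. PECAM1 (CD31) ranged from 20102 to 25291 in CD31+ libraries, from 9903 to 25978 in CD45-/EpCAM+ libraries, from 4803 to 8413 in CD45-/EpCAM- libraries and from 28048 to 36576 in pBTSCs. All CD31+ and CD146+ libraries are among S16 to S23, where PECAM1 ranged from 19884 to 28778 over every sort. MCAM (CD146) ranged from 4615 to 5226 in CD146+ libraries, from 3672 to 4751 in CD31+ libraries and from 4331 to 7656 in pBTSCs. ALB, the albumin gene of hepatocytes, stood between 513084 and 1789958 in every liver library. Each liver sort is named here by its label only. The labels do not tie liver libraries to animals, so libraries may share a donor and the p-values measure only the spread between these libraries.

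Haemopexin and LBP were the members furthest below the liver in pBTSCs. HPX stood at 11.8, 16.5 and 8.29 in S2, S7 and S11 and at 478 and 1020.1 in S15 and S20, whereas the 15 liver libraries ran from 9104 to 56737 with a median of 31363. LBP stood at 2.69, 5.02 and 2.06 in S2, S7 and S11 and at 67.7 and 96.6 in S15 and S20, against 3106 to 9627 with a median of 6204 in liver. For both genes the pBTSC values did not overlap those of liver, and S15 and S20 lay above the other pBTSC libraries. Against CD45-/EpCAM+ liver cells the log2 fold change on log2(normalized count + 1) was -8.33 for HPX (standard error 1.13, limma adjusted p = 2e-05) and -8.97 for LBP (standard error 0.82, limma adjusted p = 3.02e-07). LBP in S2, S7 and S11 was close to the added count of 1, so the size of its change depends on that choice. Over the alternative settings LBP ran from -10.18 to -7.89 and HPX from -9.38 to -7.64. S15 is one of the shallow libraries, and its LBP value rests on about 5.39 reads and its HPX value on about 38.1.

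The bikunin precursor and its heavy chain partners followed the same direction. AMBP stood at 47.8, 73.1 and 33.9 in S2, S7 and S11 and at 440.1 and 767 in S15 and S20, against 13120 to 36333 in liver. ITIH1 stood at 159, 204 and 125 in S2, S7 and S11 and at 549 and 1504 in S15 and S20, against 15039 to 60601. ITIH2 stood at 91.9, 185 and 214 in S2, S7 and S11 and at 565 and 972 in S15 and S20, against 6688 to 46744. These 3 genes were again higher in S15 and S20 than in the other pBTSC libraries, and none of the 5 pBTSC libraries reached the liver values. The log2 fold changes against CD45-/EpCAM+ cells were -7.34 for AMBP (standard error 0.70), -6.65 for ITIH1 (standard error 0.59) and -5.96 for ITIH2 (standard error 0.62), with limma adjusted p-values of 4.34e-07, 2.07e-07 and 1.14e-06.

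ITIH3 and ITIH4 were also below the liver but ran the other way among the pBTSC libraries. ITIH3 stood at 1165, 2153 and 746 in S2, S7 and S11 and at 356 and 576 in S15 and S20, against 5896 to 57101 in liver. ITIH4 stood at 3113, 7020 and 2915 in S2, S7 and S11 and at 1927 and 3002 in S15 and S20, against 26633 to 278663. ITIH3 was thus lower in both S15 and S20 than in each of S2, S7 and S11, while for ITIH4 the value of S20 fell between those of S2 and S11. Against CD45-/EpCAM+ cells the log2 fold change was -4.45 for ITIH3 (standard error 0.61, limma adjusted p = 2.26e-05) and -4.70 for ITIH4 (standard error 0.74, limma adjusted p = 9.32e-05).

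ITIH5 was the one member higher in pBTSCs. It stood at 8046, 9142, 7460, 9558 and 11182 in S2, S7, S11, S15 and S20, against 1149 to 3026 in liver with a median of 2468. The groups did not overlap, and the pBTSC values lay closer together, relative to their mean, than those of any other member (9077 ± 1444, SD, n = 5). The log2 fold change against CD45-/EpCAM+ cells was 2.15 (standard error 0.14, limma adjusted p = 1.06e-08). Markers of fibroblasts, stellate cells and smooth muscle moved with it: 10 of the 13 tested were higher and 1 lower in pBTSCs in the same comparison, and their summed level was 475000 to 1730000 in pBTSCs and 47900 to 219000 in liver. Among the pBTSC libraries the sum did not keep the order of ITIH5. It was 475500, 538700, 1050000, 1716000 and 1725000 in S2, S7, S11, S15 and S20, whereas ITIH5 was lowest in S11. The part of fibroblasts, stellate cells and smooth muscle in the ITIH5 difference was not tested.

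**Figure D1:**
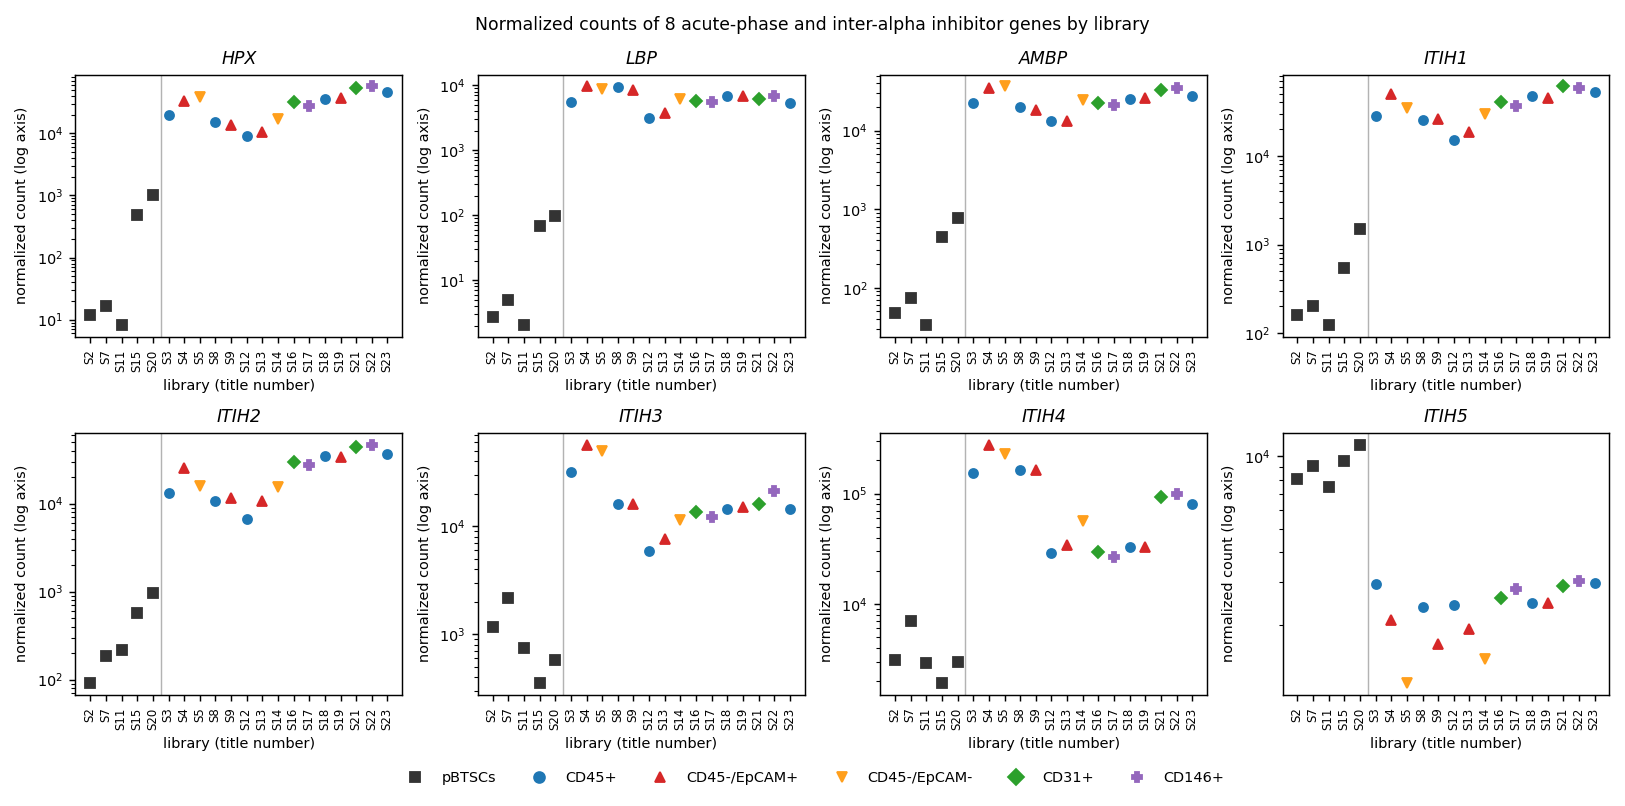
Normalized counts (log axis) of the 8 genes in the 20 libraries, with the 5 pBTSC libraries left of the grey line and the 15 liver libraries right of it in the order of their title numbers; symbols give the labelled group. HPX and LBP climb from 16.5 or less and 5.02 or less in S2, S7 and S11 to 1020.1 and 96.6 in S20, still below all liver libraries, whereas ITIH5 is at 7460 or more in pBTSCs and at most 3026 in liver.

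The direction was the same against each of the 5 liver sorts. In each comparison 7 members were called lower and ITIH5 was called higher in pBTSCs, with an adjusted p under 0.05 and a change of more than 1 on the log2 scale. Among the 15576 genes tested, 10.3% were called lower and 14.8% higher against CD45-/EpCAM+ cells, 16.6% and 20% against CD45-/EpCAM- cells, 9.54% and 11% against CD45+ cells, 7.62% and 6.73% against CD31+ cells, and 7.75% and 14.5% against CD146+ cells. The 5 comparisons share the pBTSC libraries. Counted without a model, 7 members lay in all 5 pBTSC libraries below all 15 liver libraries, as did 9.21% of the genes tested, and ITIH5 lay above, as did 11.9%. The median log2 fold change of the 8 members against CD45-/EpCAM+ cells was -6.30, beside 0.08 over all genes tested.

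The differences had these ranges over the 5 sorts. HPX ranged from -8.33 against CD45-/EpCAM+ cells to -9.34 against CD31+ cells, and LBP from -8.71 against CD45+ cells to -9.09 against CD45-/EpCAM- cells. ITIH4 ranged from -3.99 against CD146+ cells to -5.11 against CD45-/EpCAM- cells, with standard errors of 0.93 in both. ITIH5 ranged from 1.62 against CD146+ cells to 2.80 against CD45-/EpCAM- cells. In these comparisons the call of ITIH4 was lost against CD146+ cells with array weights (-3.94, limma adjusted p = 0.0915). It was also lost in some fits whose liver arm held 1 library, and kept in others. Where it was lost, the library left was one of S16 to S19, where ITIH4 stood at 26633 to 32777. Such a fit assumes the 1 library to vary like the other groups. Without the CD31+ library S21 the difference of ITIH4 from CD31+ cells was -3.17. Its difference from CD146+ cells was -3.03 without the CD146+ library S22 and -2.84 without the 3 shallow libraries. Against the one CD45-/EpCAM+ library of the numbers S16 to S23 it was -3.32.

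**Figure D2:**
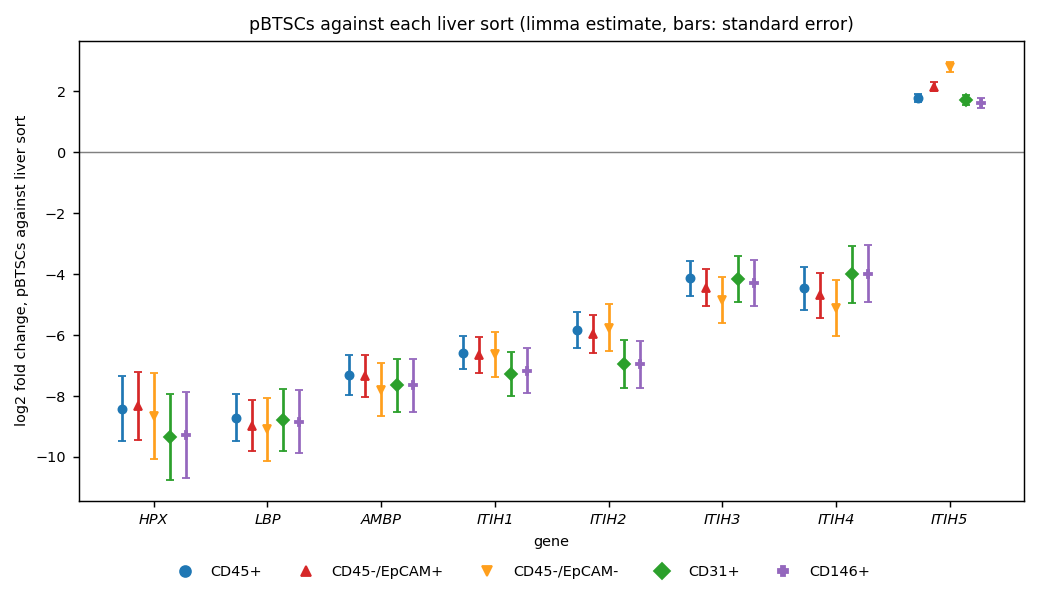
Log2 fold change of each gene (vertical axis) in the 5 pBTSC libraries against each liver sort, from one limma fit over 6 groups, with standard errors as bars. HPX and LBP lie between -8.33 and -9.34, ITIH3 and ITIH4 between -3.99 and -5.11, and ITIH5 alone lies above 0, between 1.62 and 2.80.

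Hepatocyte markers moved with these differences. All 15 were lower in pBTSCs than in CD45-/EpCAM+ cells, and their summed level was 27300 to 74100 in pBTSCs and 978000 to 2810000 in the liver libraries. ALB itself stood at 376, 287 and 288 in S2, S7 and S11 and at 19832 and 25087 in S15 and S20. Of the other marker lists, all 11 macrophage markers were lower in pBTSCs. Lymphocyte (3 higher and 1 lower of 11), endothelial (3 and 4 of 12), cholangiocyte (2 and 3 of 11) and erythroid markers (2 and 1 of 10) moved both ways, and none of 10 neutrophil markers was called. In bulk RNA, fewer hepatocytes and less of these transcripts in each cell cannot be told apart. Set against ALB in the same library, the members fell into distinct patterns. The log2 ratio of HPX to ALB was -5.38 to -4.12 in pBTSCs and -6.31 to -4.13 in liver, and that of LBP to ALB was -8.20 to -5.84 in pBTSCs and -8.10 to -5.79 in liver. Against ALB these ranges largely overlapped between pBTSCs and liver, but the summed level of the 15 hepatocyte markers gave another picture. The make-up of that sum differed between libraries. In S2, S7 and S11 it was 27300 to 30500, of which ALB was 376 or less, so it came almost wholly from the other markers. In S15 and S20 it was 55960 and 74120, with ALB at 19832 and 25087, and in liver ALB was a large part of it. Against that sum HPX was at -11.68 to -10.85 in S2, S7 and S11 and -6.87 to -6.18 in S15 and S20, against -7.01 to -5.58 in liver, and LBP was at -13.69 to -9.58 in pBTSCs, below the -8.75 to -7.26 of liver.

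For the heavy chains the ratios to ALB in S2, S7 and S11 lay above those of liver, and here too the direction depended on the denominator. The log2 ratio of ITIH1 to ALB was -1.24, -0.49 and -1.21 in S2, S7 and S11, above the liver range of -5.52 to -4.21, and -5.17 and -4.06 in S15 and S20. For ITIH4 it was 3.05, 4.61 and 3.34 in S2, S7 and S11 and -3.36 and -3.06 in S15 and S20, against -5.75 to -1.55 in liver. For ITIH5 it was 4.42, 4.99 and 4.69 in S2, S7 and S11 and -1.05 and -1.17 in S15 and S20, all above the liver range of -9.87 to -7.48. For AMBP, ITIH3 and ITIH4 the ratios of S15 and S20 lay inside the liver range, those of ITIH2 (-5.13 and -4.69) lay just above its top of -5.20, and ITIH5 was outside it in all 5 pBTSC libraries. Against the summed hepatocyte markers, ITIH1 turned to below liver in S2, S7 and S11 (-7.78 to -7.22, against -6.22 to -5.41), and AMBP was below it too (-9.65 to -8.70, against -6.66 to -5.74). ITIH2 (-8.34 to -6.99, against -7.19 to -5.91) and ITIH4 (-3.26 to -2.12, against -6.29 to -3.09) overlapped liver there. ITIH3 (-5.19 to -3.82, against -7.58 to -5.27) and ITIH5 (-1.89 to -1.74, against -10.72 to -8.66) stayed above it. These ratios compare libraries, not the amounts of the genes, because gene lengths were not divided out.

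Within the liver, 15 libraries carry title numbers in 5 runs: S3 to S5, S8 and S9, S12 to S14, S16 to S19, and S21 to S23. In number order each run directly follows 1 pBTSC library (S2, S7, S11, S15 and S20), and the labels do not say whether a run is an animal. Grouping the libraries by run was chosen after their values were seen. The split at S15, into 8 libraries of S3 to S14 and 7 of S16 to S23, was set from earlier work on these data, where AFP, the alpha-fetoprotein gene, separated them: it stood at 65022 to 176993 in S3 to S14 and at 914 to 2034 in S16 to S23. By the supplement, the pBTSC libraries that precede the runs of S3 to S14 came from H2B-GFP piglets and those before S16 to S23 from wild-type piglets. Whether the liver donors were of the same lines is not given, so line and title range may coincide.

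ITIH4 was the member whose liver level changed most from run to run. It stood at 155202 (CD45+), 278663 (CD45-/EpCAM+) and 227074 (CD45-/EpCAM-) in S3, S4 and S5 and at 163647 and 163325 in S8 and S9. It then stood at 29008, 34551 and 56130 in S12, S13 and S14, at 26633 to 32777 in S16 to S19, and at 93769, 100268 and 79837 in S21, S22 and S23. The high values of S3 to S9 and the low ones of S12 to S19 did not overlap, whichever sort the libraries belonged to, and S21 to S23 lay between them. ITIH3 was highest in S3 to S5, at 31744, 57101 and 50145, and lay between 5896 and 21231 in the other 12 liver libraries.

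HPX, ITIH1 and ITIH2 had another order of runs, with the highest values in S21 to S23. HPX stood at 46997 to 56737 in S21 to S23, at 27545 to 36373 in S16 to S19 and at 9104 to 16973 in S12 to S14. ITIH1 stood at 52918 to 60601, 36656 to 46827 and 15039 to 29349 in the same runs, and ITIH2 at 36567 to 46744, 27764 to 34468 and 6688 to 15343. In S3 to S5, HPX stood at 20057 to 37837 and so overlapped S16 to S19, while ITIH2 stood at 13264 to 25309 and did not. AMBP and LBP varied less: AMBP from 13120 in S12 to 36333 in S5 and LBP from 3106 in S12 to 9627 in S4, with S12 the lowest library for both.

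**Figure D3:**
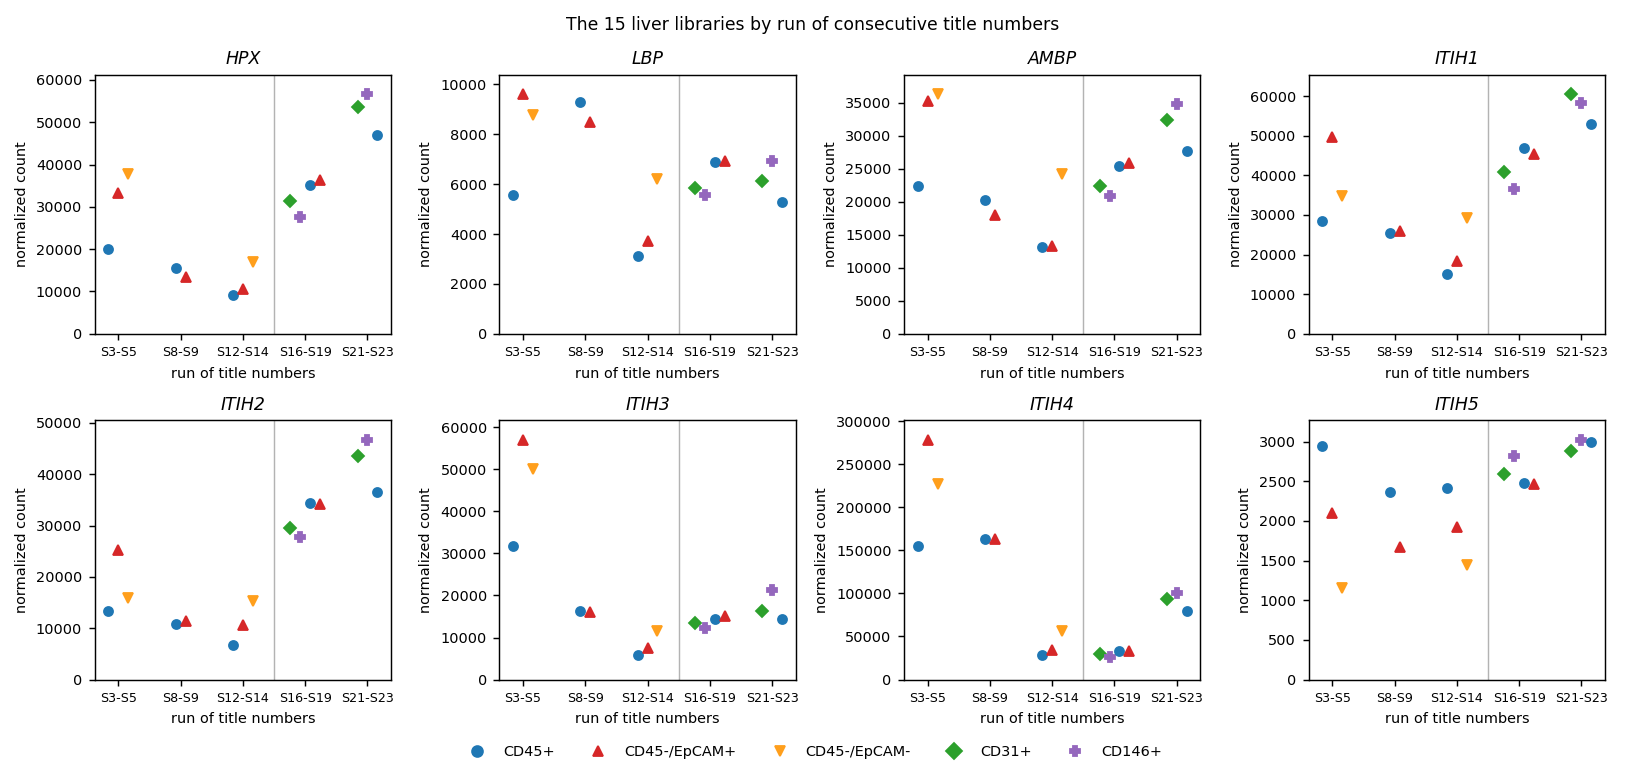
Normalized counts (linear axes from 0) of the 8 genes in the 15 liver libraries, placed by run of title numbers, with the grey line at the split between S3-S14 and S16-S23 and symbols for the labelled sort. ITIH4 is at 155202 to 278663 in S3 to S9 and at 26633 to 56130 in S12 to S19, and ITIH2 is higher in every S16-S23 library than in every S3-S14 library.

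The ratios between heavy chains were tighter within runs than the levels themselves. The log2 ratio of ITIH4 to ITIH1 was 2.45 to 2.71 in S3 to S5, 2.65 and 2.69 in S9 and S8, 0.91 to 0.95 in S12 to S14, -0.52 to -0.46 in S16 to S19 and 0.59 to 0.79 in S21 to S23. Within a run it spanned at most 0.26, over libraries of 2 to 4 different sorts, while the medians of the runs spanned 3.15. ITIH4 alone spanned up to 0.95 on the log2 scale within a run and ITIH1 up to 0.97. The log2 ratio of ITIH3 to ITIH1 was 0.16 to 0.53 in S3 to S5, -0.68 and -0.65 in S9 and S8, and -1.90 to -1.28 in the other 10 liver libraries. That of ITIH2 to ITIH1 was -1.24 to -0.79 in S3 to S14 and -0.53 to -0.32 in S16 to S23, with no overlap.

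Among pBTSCs the ratio of ITIH4 to ITIH1 was 4.29, 5.11 and 4.55 in S2, S7 and S11, above every liver library. In S15 and S20 it was 1.81 and 0.997, inside the liver range. The ratio of ITIH3 to ITIH1 was split in the same way, with 2.87, 3.40 and 2.58 in S2, S7 and S11 and -0.63 and -1.38 in S15 and S20. ITIH2 to ITIH1 was not, at -0.80, -0.14 and 0.79 in S2, S7 and S11 and 0.04 and -0.63 in S15 and S20.

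**Figure D4:**
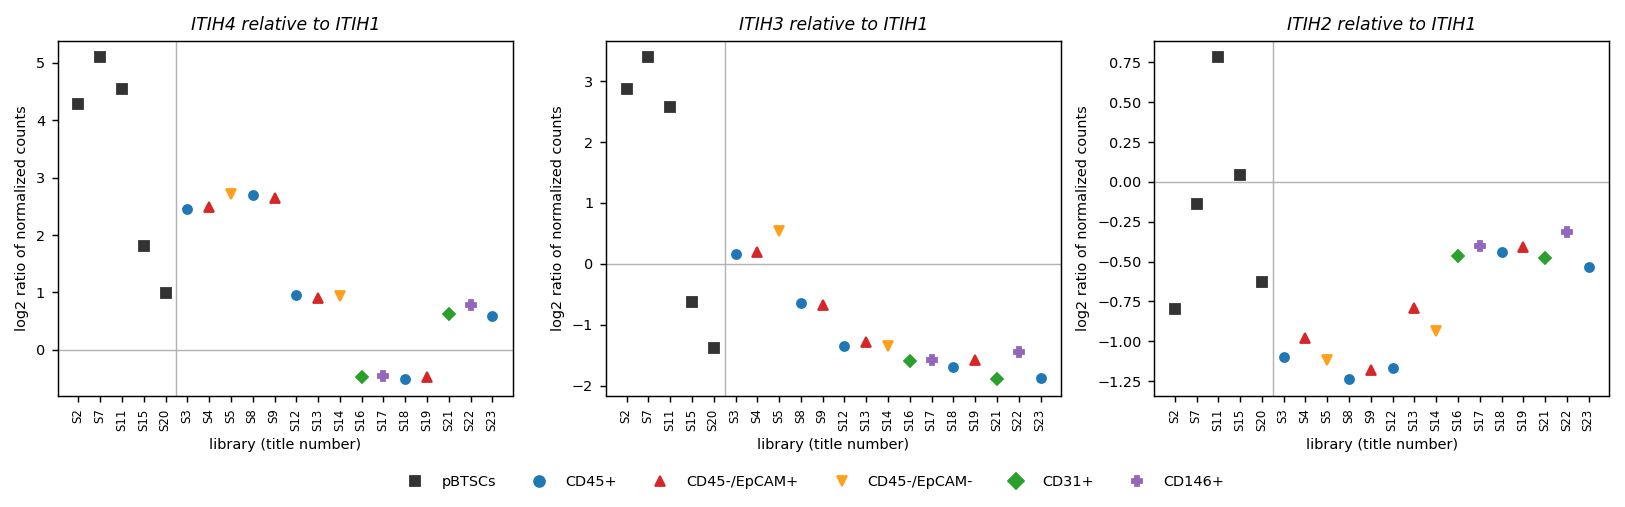
Log2 ratio of the normalized counts of ITIH4, ITIH3 and ITIH2 to those of ITIH1 (vertical axes) in each library, pBTSCs left of the grey line and liver libraries right of it in title order, with symbols for the labelled group. The ITIH4 ratio steps from run to run in liver, from 2.71 at most in S5 to -0.52 in S18, and is 4.29 or more in the pBTSC libraries S2, S7 and S11.

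With sort held in the fit, an F test over the 5 runs called 7 of the 8 members (limma, adjusted p under 0.05), where 34.6% of 15566 genes were called. The F statistics were 36.5 for ITIH3 (adjusted p = 0.000292), 30.3 for ITIH4 (adjusted p = 0.000493), 28.5 for HPX (adjusted p = 0.000568) and 16.3 for ITIH2 (adjusted p = 0.00252), and LBP, ITIH1 and AMBP had adjusted p-values of 0.0106, 0.013 and 0.017. ITIH5 was not called (F = 1.59, adjusted p = 0.342). Without the CD45+ library S12, 4 members were called, and without the 3 shallow libraries 5 were. LBP and AMBP lost the call in both, and ITIH1 lost it without S12 (adjusted p = 0.0541).

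Over the 5 sorts, with the title range held, limma called 0 of the 8 members and 0.0321% of 15566 genes, and 1 member, ITIH5, had an unadjusted p under 0.05. With the run held in place of the range, again no member was called, 1 had an unadjusted p under 0.05, and 0.270% of genes were called. Across the 15576 genes tested over the 20 libraries, liver libraries of the same run and different sorts correlated with a median Pearson r of 0.987 (16 pairs). Those of different runs and the same sort correlated with a median of 0.952 (19 pairs). This is a description over genes that share libraries.

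ITIH5 was the member with most order among sorts. It stood at 2947, 2102 and 1149 in S3 (CD45+), S4 (CD45-/EpCAM+) and S5 (CD45-/EpCAM-), at 2361 and 1667 in S8 (CD45+) and S9 (CD45-/EpCAM+), and at 2413, 1928 and 1445 in S12, S13 and S14, which have the sorts of S3, S4 and S5. In each of these runs the CD45+ library was highest and, where there was one, the CD45-/EpCAM- library lowest, while S16 to S23 lay between 2468 and 3026 in all sorts. The F test over sorts gave F = 8.43 (limma adjusted p = 0.217), and an adjusted p of 0.0412 without the CD146+ library S17. PECAM1 had the same order within these runs, from 16311 in S3 to 4803 in S5 and from 12940 in S12 to 8413 in S14, but the 12 endothelial markers summed did not, at 64140 in S8 and 74950 in S9 and at 148700 in S12 and 177900 in S13. The summed markers of fibroblasts, stellate cells and smooth muscle followed the ITIH5 order in all 3 runs, at 149600, 89200 and 47870 in S3, S4 and S5, at 181200 and 134600 in S8 and S9, and at 93450, 72480 and 56760 in S12, S13 and S14. Between the runs S16 to S19 and S21 to S23 these sums went the other way from ITIH5. The sums were 196000 to 219000 and 119000 to 132000, and ITIH5 was 2468 to 2819 and 2885 to 3026. The part of fibroblasts, stellate cells and smooth muscle in the ITIH5 order was not tested.

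Between the title ranges, 2 members were called, both lower in S3 to S14. The fit took the libraries as independent, although those of a run resembled each other and each range holds few runs. ITIH2 had a mean of 13673 ± 5544 (SD, n = 8) in S3 to S14 and 36100.0 ± 6904 (SD, n = 7) in S16 to S23, a log2 fold change of -1.47 (standard error 0.23, limma adjusted p = 0.000239). HPX had means of 19592 ± 10493 and 41112 ± 11365, a log2 fold change of -1.19 (standard error 0.30, limma adjusted p = 0.00583), and its ranges overlapped. Among all genes tested, 6.82% were called lower and 5.32% higher in S3 to S14. With sort as a term, HPX was at -1.37 but no longer called (limma adjusted p = 0.0776), and ITIH2 kept its call. Without S12 to S14, a setting chosen after the values were seen, HPX was at -0.85 and fell short of the fold threshold.

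The other 6 members were not called between the ranges. ITIH1 (-0.85, limma adjusted p = 0.0105) and ITIH5 (-0.51, adjusted p = 0.0224) passed the adjusted p but not the fold threshold. ITIH4 differed by 1.12 (standard error 0.55, limma adjusted p = 0.118), with means of 138450 ± 91493 and 56474 ± 33186, and S12 to S14 lay with S16 to S19 and not with S3 to S9. Leaving out S12 to S14 was chosen after their low ITIH4 values were seen. It was therefore bound to widen the difference, which became 1.99, and is no test of it. Leaving out each library in turn was planned, and without S12, also low, the difference was 1.38 (limma adjusted p = 0.0479). ITIH3 (0.27), LBP (0.04) and AMBP (-0.32) had limma adjusted p-values of 0.646, 0.91 and 0.296.

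Markers of other cells moved with the ranges. All 10 neutrophil markers tested and 8 of 10 erythroid markers were higher in S3 to S14, and none was lower. The summed neutrophil markers were at 2120 to 83300 in S3 to S14 and 556 to 909 in S16 to S23, and the summed erythroid markers at 15000 to 898000 and 7030 to 10400. Of the hepatocyte markers 1 of 15 was called lower, and their sums were 978000 to 2380000 and 2020000 to 2810000. ALB, which is on that list, did not overlap between the ranges. It stood at 513084 to 1348204 in S3 to S14 and at 1366702 to 1789958 in S16 to S23. Of the macrophage markers 1 of 11 was higher, and their sum was highest in S12 to S14, at 137000 to 184000. The CD45-/EpCAM- libraries S5 and S14 had the highest erythroid sums, 898000 and 203000. Endothelial (3 of 12) and fibroblast (2 of 13) markers were called lower, and 1 of 11 lymphocyte and none of 11 cholangiocyte markers higher, with none of these 2 lists lower. The part of these cells in the member differences was not tested.

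Other acute-phase genes moved in both directions between the ranges. Of 18 tested, 3 were higher (APCS, HAMP and LCN2) and 6 lower in S3 to S14. LCN2 is also on the list of neutrophil markers, so its call is counted in both lists. APCS, which encodes serum amyloid P, stood at 22198 to 43312 in S3 to S5, at 6866 and 7130 in S8 and S9, at 1250 to 2876 in S12 to S14, at 82.1 to 100.2 in S16 to S19 and at 552 to 939 in S21 to S23. HAMP, the iron hormone hepcidin, stood at 1049 to 5847 in S3 to S9, at 24.5 to 34.6 in S12 to S14 and at 0 to 12.2 in S16 to S23. CP (ceruloplasmin) was lower in S3 to S14 by -1.84 on the log2 scale (standard error 0.23, limma adjusted p = 5.45e-05), as was MBL2 (mannose-binding lectin) at -3.79 (standard error 0.29, adjusted p = 3.89e-07).

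CRP, the C-reactive protein gene, was low in S12 to S19, as ITIH4 was, and high in S21 to S23. It stood at 1755 to 3062 in S3 to S9, at 338 to 600.4 in S12 to S14, at 307 to 436 in S16 to S19 and at 2986 to 4160.0 in S21 to S23. It was not called between the ranges (0.35, limma adjusted p = 0.737). Of the 9 genes whose proteins fall in the acute phase, FETUB (fetuin-B) alone was called between the ranges, higher in S3 to S14 by 2.40 (standard error 0.24, limma adjusted p = 5.39e-06).

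**Figure D5:**
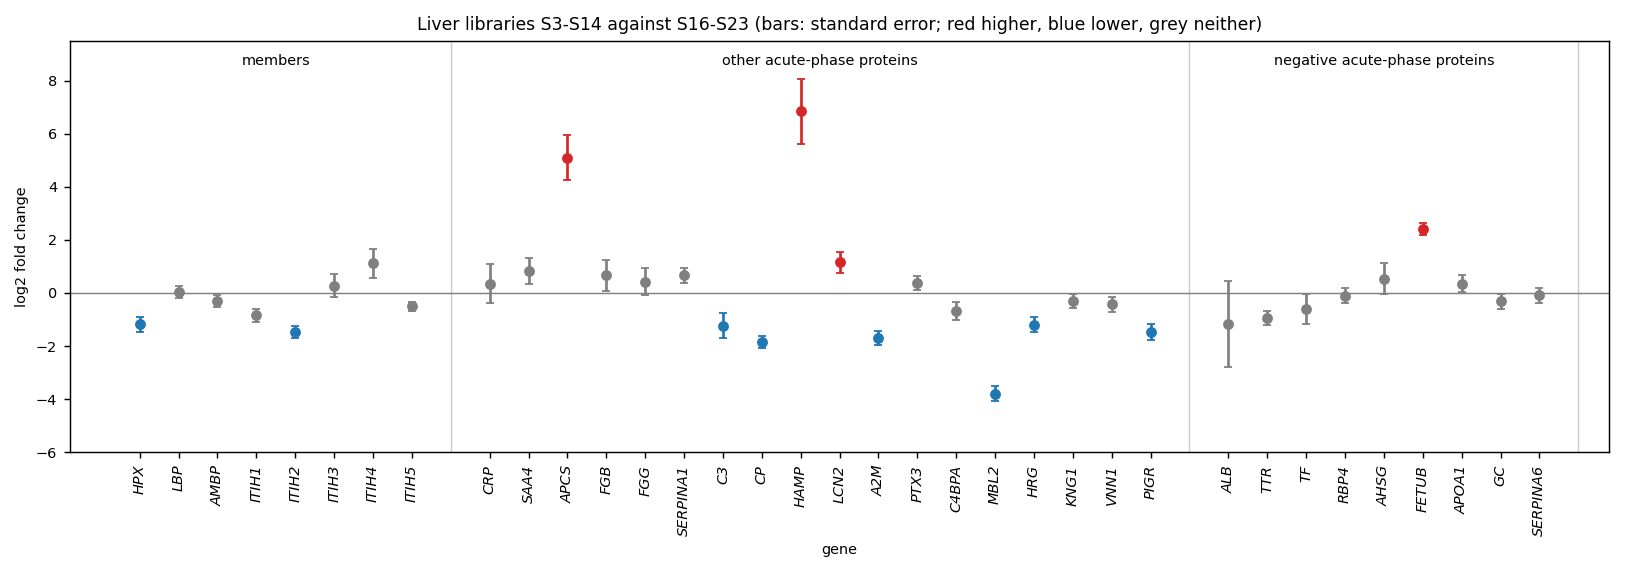
Log2 fold change (vertical axis) in the 8 liver libraries S3-S14 against the 7 of S16-S23 for the 8 members, 18 other acute-phase genes and 9 genes whose proteins fall in the acute phase, from limma, with standard errors as bars; red points were called higher, blue lower and grey neither. The members lie between -1.47 (ITIH2) and 1.12 (ITIH4), a narrower span than the other acute-phase genes, from -3.79 (MBL2) to 6.84 (HAMP).

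The same lists were read against pBTSCs. Of the 18 other acute-phase genes, 14 were lower and 2 higher in pBTSCs than in CD45-/EpCAM+ cells, with a median log2 fold change of -5.17. The largest falls were those of APCS (-10.26, listed at 0 in 2 pBTSC libraries) and the fibrinogen chains FGB (-9.73) and FGG (-8.30). The 2 that rose were PIGR (2.80), the receptor that carries immunoglobulin across epithelia, and PTX3 (1.92), a pentraxin made outside the liver. All 9 genes whose proteins fall in the acute phase were lower, among them FETUB (-9.10) and AHSG (-8.75), with a median of -6.93. ALB, TTR, TF and APOA1 of these 9, and FGB and SERPINA1 of the 18, are also among the hepatocyte markers.

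Partners of the members were mixed. Of 15 hyaluronan genes tested, 2 were higher (HAS3, a hyaluronan synthase, 2.32, and VCAN, the proteoglycan versican, 1.39) and 5 lower in pBTSCs, of which STAB2, the hyaluronan receptor of sinusoidal endothelium, fell most (-7.13). TNFAIP6, which transfers the heavy chains, stood at 147 to 249.99 in pBTSCs and 0 to 207 in liver and was not called (2.998, standard error 1.26, limma adjusted p = 0.0688). In the list of haem and endotoxin receptors, 3 of 12 were higher and 4 lower. The LBP partner CD14 was lower by -3.83 (standard error 0.33, limma adjusted p = 1.5e-07), HMOX1, which degrades haem, by -3.98 and the haemoglobin scavenger CD163 by -3.53, while LRP1, the receptor of haem-haemopexin, was not called (-0.52, adjusted p = 0.145).

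Of 31 genes of acute-phase signalling, 2 were higher and 7 lower in pBTSCs, with a median of -0.15. IL6 was higher by 1.27 (standard error 0.40, limma adjusted p = 0.0173) and LIF, a related cytokine, by 2.57. STAT3 was not called (0.13, limma adjusted p = 0.45). Between the liver ranges 2 of the 31 were higher in S3 to S14, OSM (2.40, limma adjusted p = 8.47e-05) and TNF (1.99, adjusted p = 0.00481), and none was lower. The haem and endotoxin list had 2 of 12 higher there, BLVRB (1.75) and HMOX1 (1.68), and the hyaluronan list 1 of 15 lower, HAS3 (-1.24).

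Over the 20 libraries each liver-type member had near neighbours among other genes, which is a description of libraries that share 2 tissues. The highest Pearson correlations of log2(normalized count + 1) were 0.997 for HPX with SERPINC1 (antithrombin), 0.998 for LBP with SLC22A7, 0.999 for AMBP with HGFAC, 0.997 for ITIH1 with LECT2 and 0.996 for ITIH2 with XDH. ITIH3 was nearest to PPAT (0.982), ITIH4 to THPO (thrombopoietin, 0.976) and ITIH5 to CAMKK2, LTBP4 and TPPP3 (0.972 each). Within the 15 liver libraries alone, members separated: HPX with ITIH1 had r = 0.965 and ITIH1 with ITIH2 0.959, ITIH3 with ITIH4 0.805, but ITIH2 with ITIH4 -0.10. Libraries of one run are not independent, so these values carry no test.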

How the data were processed

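Poly(A) RNA of 5 pBTSC and 15 sorted liver preparations was sequenced, and libraries were grouped by their deposited cell type. Values were used as deposited, a signal of normalized counts that is never negative; the submitters' processing notes name STAR, Salmon and DESeq2, and versions, genome build and annotation are not given in the sources used here. The value of 1 read per library was estimated from its low values, 59.3% to 82.6% of which were whole to a tolerance of 0.05 reads, and count tests were not run for that reason. Floors of 3 reads cover counting error only. All 20 sample columns were used.

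log2(normalized count + 1) was modelled using R 4.3.3 and limma 3.58.1, with a mean-variance trend and p-values adjusted by Benjamini-Hochberg over every gene tested. A gene was tested if 2 or more libraries reached 10 normalized counts, which all 8 members did. A call took an adjusted p under 0.05 with a log2 change beyond 1 in size, or the adjusted p alone for F tests. The pBTSC comparisons used all 6 groups in 1 fit and the liver comparisons the 15 liver libraries; the fit was tested on simulated data. Alternatives changed 1 choice at a time, except that the fit on CD45+ and CD45-/EpCAM+ libraries also had sort as a term: the pseudocount (0.1 or 10), the filter (none or 50), the scaling, the trend, array weights, the covariates, the libraries fitted and each library left out in turn. The members, the gene lists and the title ranges were chosen with earlier results of these data known. Genes named are the members, up to 4 called genes of the largest change per list and comparison, those a sentence on a list needs, and the 3 nearest correlates of each member. PTPRC, PECAM1, MCAM and AFP were added after their values were seen. Tables were handled in Python 3.11.15 with pandas 2.3.3 and numpy 2.4.6, and figures drawn with matplotlib 3.10.9.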

Additional observations from a re-analysis of the deposited data

Results flagged for a closer look

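Of 78 sets of values checked, the 8 members and 5 ratios between them in every group, range or run of 4 to 8 libraries, 1 held a library far from the others by Dixon's criterion. The log2 ratio of ITIH3 to ITIH1 was -1.69 in the CD45+ library S18, and -1.60 to -1.59 in the other 3 libraries of S16 to S19. Chance flags about 1 in 20 such sets.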

How the results depend on the processing

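The count of members called against pBTSCs was 8 for each sort. Leaving out 1 library changed this only without S21 or S22, where the call of ITIH4 was lost. The library left was then S16 for CD31+ or S17 for CD146+. Without S16 or S17, which also left 1 such library, the call of ITIH4 was kept. Array weights gave 7 against CD146+ cells, where ITIH4 was lost (limma adjusted p = 0.0915). Leaving out the 3 shallow libraries also left 1 CD146+ library, with a difference of -2.84 for ITIH4. Between the title ranges 2 members were called, against 4 by the adjusted p alone and 1 with sort as a term, whether over all liver libraries or over CD45+ and CD45-/EpCAM+ libraries, and 2 to 3 with 1 library left out. ITIH4 joined the calls with array weights (1.99) and without the shallow libraries (1.52). LBP, not called, changed sign to -0.11 in both fits with sort as a term, and ran from -0.048 to 0.185 with 1 library left out. ITIH5 joined the calls over runs with array weights. Over sorts 0 to 1 and over runs 4 to 7 members were called with 1 library left out. Of the 1448 single values under alternatives, 1429 kept their direction and their side of the thresholds. Rescaling each library to the same total moved the median of all genes against CD45-/EpCAM+ cells from 0.08 to 0.39 and the share of calls that were higher in pBTSCs from 59.0% to 72.6%, and no member changed direction or call. Settings by run, by range for pBTSCs and without S12 to S14 were chosen after seeing the data. No paired analysis was possible because the labels give no replicate numbers or donors; the fit over sorts with the title run held, a block inferred from the numbers, called 0 members. Depth limits the members least in liver, and most for LBP in pBTSCs.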
